A study of Homo sapiens with 6 samples.

Results

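The regions described here are stretches of open chromatin that were listed in LNCaP prostate cancer cells after androgen and in neither androgen-deprived condition of the study. ATAC-seq finds such stretches with a transposase that cuts accessible DNA and inserts sequencing adapters. LNCaP is an established human prostate cancer line that responds to androgen. The 2 isogenic lines used here carried a hairpin that lowers RB, the retinoblastoma protein (shRB), or a control one (shCON). The shCON DHT cells had 72 hours of CDT and then 3 hours of DHT, dihydrotestosterone. The shRB CDT and the shCON CDT cells had 72 hours of CDT, the hormone-deficient condition, and no DHT. The labels give no DHT dose, and they leave unsaid whether a group's 2 libraries are 2 cultures and how many clones a hairpin line holds.

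Peaks of the 3 deposited lists, 1 per group, were merged wherever they overlapped by 1 bp or more. Of the 21031 merged regions, 3297 held a shCON DHT peak and no peak of shRB CDT or shCON CDT. That is 15.7% of all regions and 26.9% of the 12252 regions with a shCON DHT peak. The members were thus chosen by the lists themselves, so these shares are a description of the rule. Each list pools 2 libraries, so no difference between conditions can be set against a spread between replicates, and no test was made. A region missing from a list was not thereby measured as closed, because the lists hold no read counts and the sequencing depth is unknown. Intervals in brackets are exact (Clopper-Pearson) 95% binomial intervals for shares and order-statistic intervals for medians. They cover counting error only and treat neighbouring regions as independent.

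Androgens act through the androgen receptor, a nuclear hormone receptor that enters the nucleus when it binds DHT and then binds DNA as a dimer at androgen response elements. In prostate cells most of its binding sites lie in enhancers away from gene starts, often beside sites of the forkhead factor FOXA1, which can bind DNA in compact chromatin. RB restrains E2F transcription factors and thereby entry into the cell cycle. Open chromatin marks both promoters, which tend to be open in most conditions, and enhancers, which vary more with cell state.

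The shCON DHT list held 12896 peaks with a median width of 776 bp, the shRB CDT list 14788 peaks with a median of 992 bp, and the shCON CDT list 12096 peaks with a median of 937 bp. Each peak carries the authors' score, a whole number capped at 1000. The score was used only to rank peaks within a list.

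The DHT-only regions were narrow and low in their list. Each held exactly 1 peak. Their median width was 479 bp (469 to 491), with quartiles of 337 and 659 bp and a range from 150 to 1839 bp. Regions of shRB CDT only had a median of 700 bp (683 to 715) and those of shCON CDT only 587.5 bp (575 to 603). The whole lists differed in the same order, with medians of 776 bp for shCON DHT, 937 bp for shCON CDT and 992 bp for shRB CDT. Together the DHT-only regions covered 1.73 Mb. Their median score was 492, the 20.6 percentile of the shCON DHT list, with quartiles of 443 and 557. Among the DHT-only regions, 54.6% (52.9 to 56.3) scored 500 or less, 83.3% scored 600 or less, and 106 of 3297 (3.22%) scored above 800. shCON DHT peaks that also lay in shRB CDT alone had a median score of 590, those also in shCON CDT alone 562, and those in regions of all 3 lists 924. Low rank was not particular to the DHT-only regions. Above the 50 percentile of their own list lay 263 of 3297 DHT-only, 440 of 4737 shRB CDT-only and 187 of 2642 shCON CDT-only regions.

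The share of shCON DHT regions that were in no other list fell with each step up in score. It was 72.3% (69.9 to 74.7) at scores up to 450, 36.2% (33.1 to 39.5) above 550 and up to 600, 12.9% (10.9 to 15.02) above 700 and up to 800 and 0.532% (0.315 to 0.839) at the cap. At scores up to 450 the remaining regions were split into 136 shared with shRB CDT, 74 shared with shCON CDT and 162 in all 3 lists. At the cap, 3276 of 3385 regions were in all 3 lists. The low end of the list therefore supplied most of the DHT-only regions.

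**Figure D1:**
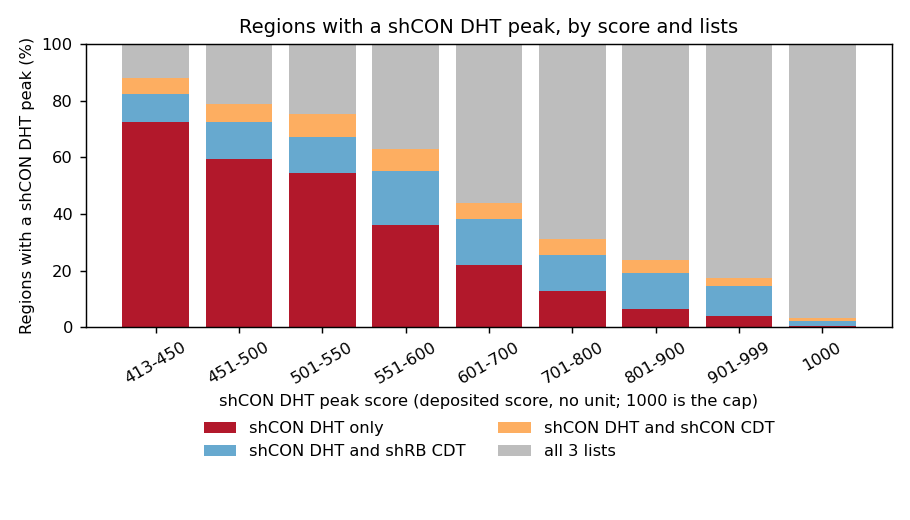
Regions with a shCON DHT peak, in bands of the deposited score (x axis, no unit), as the percentage (y axis) that lay in shCON DHT only, with shRB CDT, with shCON CDT or in all 3 lists. The share in shCON DHT only is 72.3% in the lowest band and 0.532% at the cap of 1000.

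Width separated the DHT-only regions from the other shCON DHT regions within a score band as well. Where a region held several shCON DHT peaks, its highest score and its widest peak were taken. At scores up to 450 the median peak width of DHT-only regions was 453 bp, against 731.5 bp for shCON DHT regions with a counterpart in another list. Above 600 and up to 700 the medians were 505 bp and 872 bp, and at the cap 495 bp and 1008 bp. At scores up to 500, 93.1% (88.9 to 96.1) of regions with a peak of 150 to 250 bp were in no other list, and 26.7% (21.7 to 32.2) of those with a peak above 1000 and up to 1500 bp. A narrow peak also has fewer bases with which to meet another peak. With every peak set to 500 bp around its midpoint, 3355 regions were DHT-only. Of these, 2864 shared their midpoint with a region of the 3297 (86.9% of them), and 491 had another midpoint. Close DHT-only regions that joined when set to 500 bp have a new midpoint and can be among the 491.

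**Figure D2:**
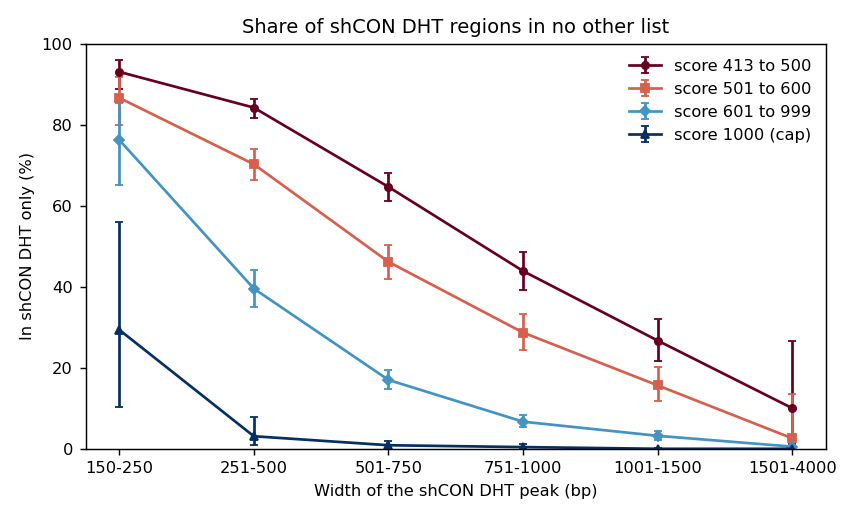
Percentage of shCON DHT regions found in no other list (y axis) by the width in bp of their widest shCON DHT peak (x axis). Each of 4 score bands has a line, with exact 95% binomial intervals. In every score band the share is highest for the narrowest peaks, 93.1% at scores up to 500 and 29.4% at the cap.

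A few DHT-only regions stood at the top of the list. At the score cap there were 18, on 12 chromosomes, with widths from 150 to 936 bp and a median of 495 bp. Of these 18, 6 lay within 500 bp of a peak of another list, 4 lay more than 100 kb from any such peak, and 5 were under 300 bp wide. The 5 ranked first, widest first among equal scores, are given with hg19 positions counted from 1. The first was on chromosome 17 from 42200598 to 42201533, 62.3 kb from shRB CDT and 11.8 kb from shCON CDT at the closest. The next was on chromosome 2 from 23968270 to 23969056, 180.2 kb from shRB CDT and 180002 bp from shCON CDT, and it had another DHT-only region within 100 kb. The third, on chromosome 20 from 25387837 to 25388616, was 16.03 kb from shRB CDT and 16.02 kb from shCON CDT. The fourth, on chromosome 13 from 99229092 to 99229854, lay 159.7 kb from shRB CDT and 432.9 kb from shCON CDT and was the most remote of these 5 from shCON CDT. The fifth, on chromosome 19 from 47551448 to 47552155, lay 46.9 kb from shRB CDT and 63.0 kb from shCON CDT. All 5 were under 1 kb wide and had between 1 and 6 regions of all 3 lists within 500 kb.

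The widest DHT-only regions had low scores. First came chr2:101435596-101437434 with a score of 491, then chr12:60071826-60073539 with a score of 517 and chr22:24312834-24314390 with a score of 482. The narrowest, at 150 bp, included 1 region at the cap, on chromosome 1 from 59012886 to 59013035. It lay 125 bp from a shRB CDT peak and 146 bp from a shCON CDT peak. The other two were also on chromosome 1, from 26491221 to 26491370 with a score of 513 and from 29241621 to 29241770 with a score of 551. The second of these also had both other lists close by, at 113 bp for shRB CDT and 71 bp for shCON CDT.

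Few regions lay within 100 bp of the edge of the 1 bp overlap rule. The regions just inside it lay 3 bp, 9 bp and 11 bp from a peak of another list. These were chr1:151803226-151804027, chr8:11515632-11515979 and chr2:91670788-91671198. The regions just outside it shared 10 bp, 14 bp and 26 bp with another list. These were chr1:195206404-195207066 and chr12:121951494-121952644, both with shRB CDT, and chrX:70798806-70799399 with shCON CDT. In all, 61 DHT-only regions lay within 100 bp of another list's peak, and 12 shCON DHT regions overlapped another list by 100 bp or less. A stricter rule changed more. With a 50% reciprocal overlap, 1372 regions were DHT-only besides the 3297.

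Most DHT-only regions were separate sites and not edges of sites listed in the other conditions. The median distance to the nearest peak of another list was 48.0 kb (45.3 to 51.1) for regions of shCON DHT only, 37.0 kb (35.3 to 38.9) for shRB CDT only and 35.2 kb (33.3 to 37.4) for shCON CDT only. Within 500 bp of such a peak lay 140 DHT-only regions (4.25%, 3.58 to 4.99), of which 43 were near shRB CDT alone, 39 near shCON CDT alone and 58 near both. At the other end, 1035 (31.4%, 29.8 to 33.0) lay more than 100 kb from any peak of another list, against 23.2% (22.05 to 24.5) of shRB CDT-only and 24.03% (22.4 to 25.7) of shCON CDT-only regions. More than 500 kb away lay 165 (5.005%, 4.28 to 5.80) of the DHT-only regions, 82 (1.73%) of the shRB CDT-only and 48 (1.82%) of the shCON CDT-only ones. Each class was set against the other 2 lists together, which held 26884, 24992 and 27684 peaks for shCON DHT only, shRB CDT only and shCON CDT only. The nearest shRB CDT peak was closer than the nearest shCON CDT peak for 60.1% (58.4 to 61.7) of DHT-only regions, with median distances of 60.2 kb and 77.0 kb. With all lists cut to the 12096 best-scoring peaks the share was 52.4% (50.5 to 54.2) and the order of the medians turned, at 71.5 kb and 69.6 kb. With a 50% reciprocal overlap, a DHT-only region can still overlap peaks of the other lists. Equal distances, as for a region that overlaps both, counted as not closer to shRB CDT. The share was then 52.1% (50.7 to 53.6), with medians of 28.02 kb and 42.3 kb.

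**Figure D3:**
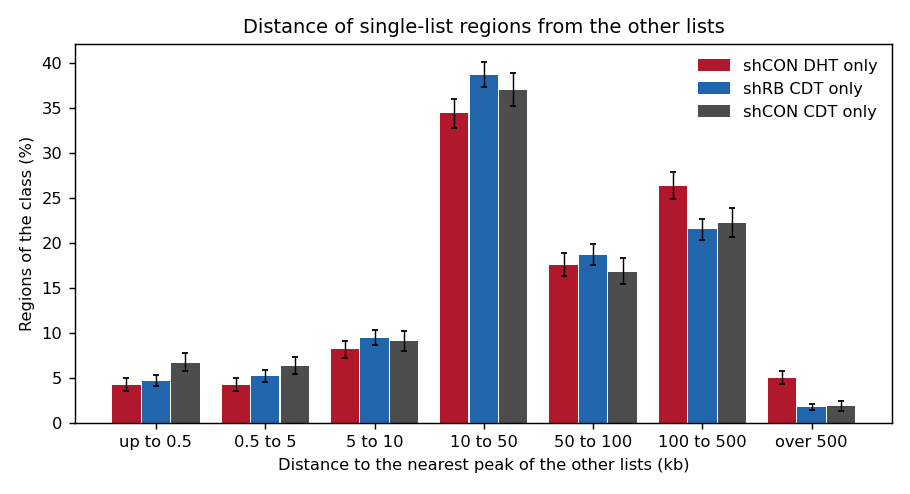
Percentage of the regions of each single-list class (y axis) by distance in kb to the nearest peak of the other lists (x axis), with exact 95% binomial intervals, for shCON DHT only, shRB CDT only and shCON CDT only. Beyond 500 kb lie 5.005% of the DHT-only regions, 1.73% of the shRB CDT-only and 1.82% of the shCON CDT-only regions.

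The most remote DHT-only regions, a feature chosen after their values were seen, were on the X chromosome. One, from 85403048 to 85403619 with a score of 533, was 5286 kb from shRB CDT and 5337 kb from shCON CDT at the closest. Another, from 84798236 to 84798488 with a score of 438, was 4732 kb from both. Next came a region on chromosome 5 from 21533665 to 21534816, 1152 bp wide with a score of 609, which lay 4226 kb from shRB CDT and 3795 kb from shCON CDT. None of the 3 had a region of all 3 lists within 500 kb.

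Regions of all 3 lists serve here as a map of sites listed in every condition of the study. A site open throughout but missing from a list is not on this map. Of the DHT-only regions, 604 (18.3%, 17.01 to 19.7) had no region of all 3 lists within 500 kb. The median distance to the nearest such region was 131 kb for shCON DHT only, 91.8 kb for shRB CDT only and 102 kb for shCON CDT only. The share was also set out by score beside that of other shCON DHT regions. At scores up to 450, no such neighbour was found for 22.02% (19.5 to 24.8) of DHT-only regions, 8.10% (4.79 to 12.6) of regions in shCON DHT and 1 other list, and 8.02% (4.34 to 13.3) of regions in all 3 lists, each counted without itself. Above 600 and up to 700 the shares were 17.3% (13.2 to 21.97), 9.24% (6.23 to 13.1) and 8.28% (6.45 to 10.4). In all 6 score bands the DHT-only share was the highest. Its interval lay above that of regions in all 3 lists in 6 bands, and above that of regions with 1 other list in 2 bands, while in the others the intervals overlapped, as above 500 and up to 550 with 18.3% (15.3 to 21.6) and 16.0% (11.5 to 21.2). Among the DHT-only regions themselves, the share was 11.4% (7.73 to 16.1) at scores above 700.

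**Figure D4:**
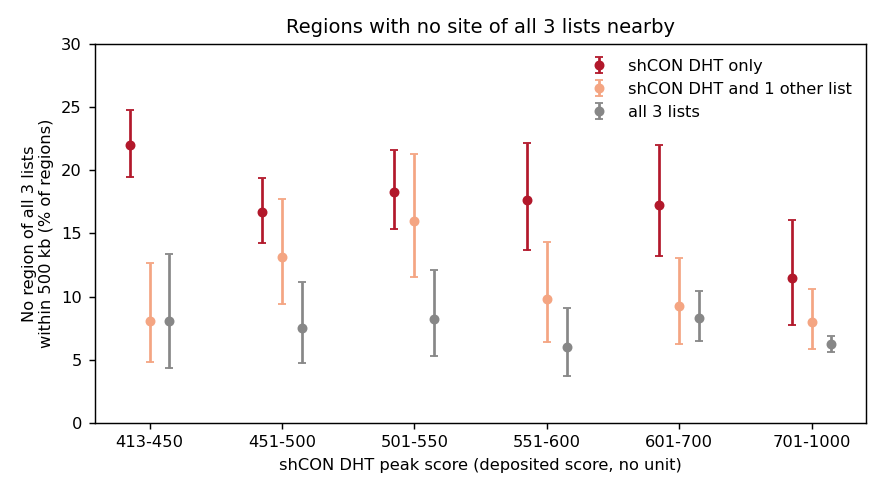
Percentage of regions with no region of all 3 lists within 500 kb (y axis), by shCON DHT peak score (x axis, no unit), for regions in shCON DHT only, in shCON DHT and 1 other list, and in all 3 lists, with exact 95% binomial intervals. At scores up to 450 the DHT-only share is 22.02% and the other two are 8.10% and 8.02%.

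The same share was compared between the single-list classes at equal rank in their own lists. Up to the 10 percentile of each list it was 22.04% (19.4 to 24.9) for shCON DHT only, 11.2% (9.42 to 13.2) for shRB CDT only and 13.4% (11.1 to 16.1) for shCON CDT only. Over 5 bands of rank, the DHT-only share was highest in each. Its interval lay above that of shRB CDT only in 4 bands, and above that of shCON CDT only in 1, the lowest. In the upper part of each list, above the 50 percentile, it was 11.4% (7.83 to 15.9), 7.73% (5.41 to 10.6) and 10.2% (6.23 to 15.4), and the intervals overlapped. After only the upper 50% of every list was kept for merging, the classes had 17.7% (15.3 to 20.4), 15.8% (14.01 to 17.8) and 16.7% (13.9 to 19.7), and those intervals overlapped as well.

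The DHT-only share varied between chromosomes with gene density. On chromosomes 4, 13 and 18, which are poor in genes, 342 of 1589 regions were DHT-only (21.5%, 19.5 to 23.6), against 15.2% (14.7 to 15.7) on the other chromosomes together. Singly, chromosome 13 had a share of 21.96% (17.6 to 26.8), chromosome 18 had 21.9% (18.2 to 25.9), chromosome 4 had 21.1% (18.3 to 24.1) and chromosome 8 had 20.6% (17.96 to 23.3). At the low end were gene-dense chromosome 19 with 10.9% (9.19 to 12.7), chromosome 22 with 11.4% and chromosome 17 with 12.6% (10.7 to 14.7). Chromosome X had 18.6% (14.8 to 22.9) and Y had 7 of 41 regions. On chromosomes 4, 13 and 18 together, shRB CDT-only regions made up 19.8% (17.9 to 21.9), against 22.7% elsewhere, and shCON CDT-only regions 11.6% (10.05 to 13.3), against 12.6% elsewhere.

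Across 23 chromosomes, Y left out, the DHT-only share and the number of protein-coding genes per Mb had a Spearman coefficient of -0.85 and a Pearson coefficient of -0.70. Without chromosomes 17 and 19, the farthest from the median density, the coefficients were -0.81 and -0.84. The shares of the classes on a chromosome add up to its whole, so their coefficients are not independent. The Spearman coefficient was 0.17 for the share of shRB CDT-only regions and 0.06 for the share of shCON CDT-only regions. For the share of regions of all 3 lists it was 0.43. With the upper 50% of every list it was -0.26 for the DHT-only share, while in the other 5 settings it lay between -0.89 and -0.81. All points come from the same 3 lists, and gene density goes with base composition and with the number of common sites, so these coefficients are a description. Copy number of the chromosomes in LNCaP, which changes the reads behind a peak, was not tested.

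**Figure D5:**
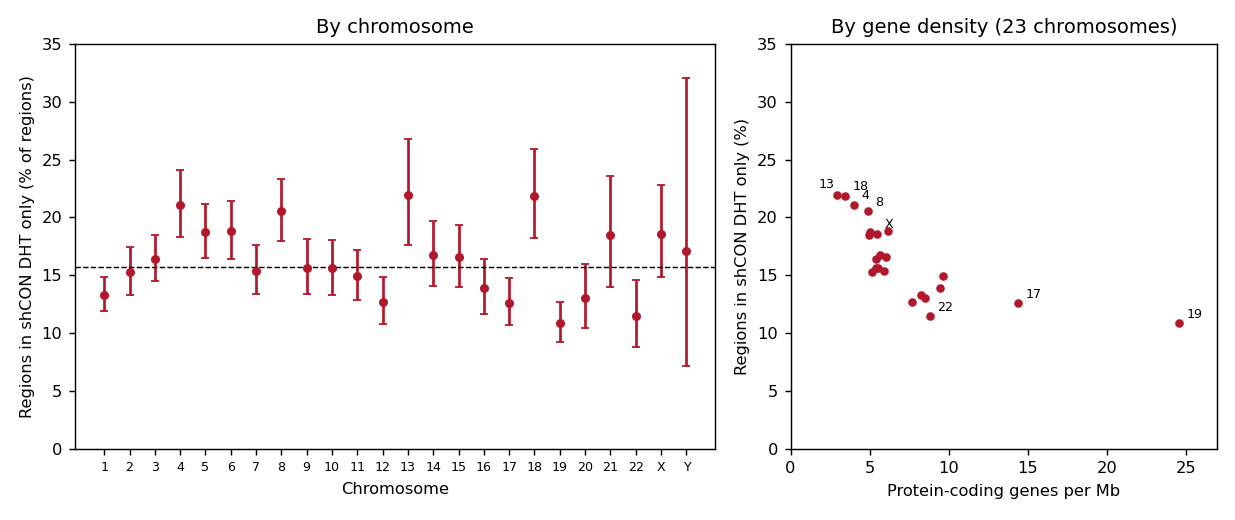
Left, regions in shCON DHT only as a percentage of all merged regions (y axis) on each chromosome (x axis), with exact 95% binomial intervals and a dashed line at 15.7%, the share over all chromosomes. Right, the same percentage against protein-coding genes per Mb for 23 chromosomes, where chromosomes 13, 18 and 4 are highest and chromosome 19 is lowest at 10.9%.

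Counted per length, the order of the chromosomes was different. Chromosome 19 had 2.29 DHT-only regions per Mb and chromosome 17 had 1.66, against 0.643 on chromosome 13 and 0.869 on chromosome 4. The order was not a plain reversal, since gene-poor chromosome 18 had 1.31 and chromosome 22 had 1.11. Chromosomes 19 and 17 held more DHT-only regions per Mb and, in greater proportion, more regions of the other classes. The DHT-only regions on chromosome 19 lay a median of 19.99 kb from another list's peak, and those on chromosome 4 a median of 123.8 kb. Their median score was 512 on chromosome 19 and 493.5 on chromosome 4. Within 3 Mb of a chromosome's first or last peak, which need not lie at its end, 279 of 2417 regions were DHT-only (11.5%, 10.3 to 12.9). Elsewhere the share was 16.2% (15.7 to 16.7). Within those 3 Mb, shRB CDT-only regions made up 27.4% (25.6 to 29.2) of regions and shCON CDT-only regions 16.5% (15.1 to 18.1). Both shares were above those elsewhere, 21.9% and 12.0%.

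Some DHT-only regions lay very close to each other. Of the 3297, 674 (20.4%) lay within 500 bp of another DHT-only region, against 10.4% of shRB CDT-only and 12.3% of shCON CDT-only regions. Joined at that distance, the 3297 regions made 2948 groups, called sites here, with 302 of 2 regions, 22 of 3 and 1 of 4. The site of 4 was on chromosome X from 69508840 to 69510629, with scores from 547 to 589. Regions with such a close partner were narrower, with a median width of 327 bp against 517 bp for those alone, while their median scores were 489 and 493. Closely spaced peaks were more frequent in the whole shCON DHT list too, where 16.8% (16.1 to 17.4) of peaks had another of the same list within 500 bp, against 1479 of 14788 (9.52 to 10.5) in shRB CDT and 10.99% (10.4 to 11.6) in shCON CDT. The smallest spacing was similar in the lists, at 50 bp in shCON DHT, 54 bp in shRB CDT and 48 bp in shCON CDT.

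This spacing bears on how clustered the DHT-only regions look. The next region along the chromosome was also DHT-only for 25.8% (24.3 to 27.3) of them, where DHT-only regions are 15.7% of all. The matching shares were 27.4% against 22.5% for shRB CDT only, and 19.2% against 12.6% for shCON CDT only. With peaks within 500 bp joined, the DHT-only share was 16.9% (15.6 to 18.4), against 14.3% of all regions in that setting. The share over its background was 1.65 times before and 1.19 times after joining for shCON DHT only, 1.22 and 1.09 times for shRB CDT only, and 1.52 and 1.21 times for shCON CDT only. By joined sites, 23.7% (22.2 to 25.3) of DHT-only sites had another within 100 kb, against 41.9% of shRB CDT-only and 27.5% of shCON CDT-only sites, whose numbers differ (2948, 4488 and 2477).

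Some stretches held several DHT-only regions in a row, with no region of another class between them. Runs of 3 or more numbered 161 and held 556 DHT-only regions (16.9%), against 17.9% of shRB CDT-only and 9.96% of shCON CDT-only regions. These runs count closely spaced regions singly. With peaks within 500 bp joined, runs of 3 or more numbered 69 and held 8.34% of DHT-only regions, against 14.04% for shRB CDT only and 6.61% for shCON CDT only. Before joining, the longest had 7 regions. One spanned 954.5 kb on chromosome 15 from 46437965 to 47392441, with scores from 416 to 657. The other spanned 1053 kb on chromosome 5 from 8473995 to 9527399, with scores from 417 to 529. None of these 14 peaks was at the cap. Runs of 7 also occurred among shRB CDT-only regions, 3 times, while the longest among shCON CDT-only regions had 4.

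In windows of 1 Mb, 1718 of the 2655 windows with any region held a DHT-only region, and 850 held exactly 1. The most in a window was 9, on chromosome 19 from 45000001 to 46000000, among 30 regions. Windows with 8 were chr11:10000001-11000000 among 15 regions, chr18:11000001-12000000 among 16, chr10:71000001-72000000 among 21 and chr8:144000001-145000000 among 37. In the chromosome 11 window the scores ran from 420 to 998, no region was shRB CDT-only and 1 was shCON CDT-only. In 116 windows every region was DHT-only, which accounted for 154 regions. For shRB CDT only such windows numbered 59, although that class had more regions, and for shCON CDT only 41.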

How the data were processed

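ATAC-seq was run on 6 LNCaP libraries, 2 per group. Per the labels, each list combines replicates 1 and 2 with an IDR (irreproducible discovery rate) cutoff of 0.1. Per the submitters' processing notes, coordinates are hg19. How reads were aligned, filtered and shifted and peaks called is not given in the sources. The score deposited by the authors is a whole number per peak.

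Peaks were merged and measured in Python 3.11.15 (scipy 1.17.1, numpy 2.4.6, pandas 2.3.3), in code checked on simulated intervals with known classes and distances. Distances run between interval edges, and numbers of neighbours between midpoints. Gene density is the number of protein-coding genes per chromosome in RefSeq's GRCh38.p14 table over the hg19 position of the last peak. That table served for nothing else. The gene start, gene list and motif measures need an hg19 genome or annotation and were not run. Positions count from 1. Named regions are the 5 highest in score (ties by width), the 3 widest, the 3 narrowest, the 3 on each side of the overlap rule and the 5 windows of 1 Mb with most members (ties by fewer other regions). The members, measures and lists were chosen with earlier results of these data known.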

Additional observations from a re-analysis of the deposited data

How the results depend on the processing

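No paired analysis was possible because the deposited lists combine both libraries of a group, and no replicate could be left out. Other windows for gene starts, gene lists and motifs were not run. Apart from the upper 50% of the lists, the number of DHT-only regions ran from 2807 (peaks within 500 bp) to 4669 (reciprocal overlap). Without the X and Y chromosomes no measure left its counting interval. The share of DHT-only regions with no region of all 3 lists within 500 kb stayed between 16.6% and 18.7% in all 6 settings and left its interval with a 50% reciprocal overlap alone (16.6%). Values below follow the order share of shCON DHT regions in no other list, median score, median width, median distance to another list, share whose next region is DHT-only, and share on chromosomes 4, 13 and 18; a measure left out stayed within its interval. With peaks within 500 bp counted as overlapping, they were 23.9%, width 561 bp, 51.2 kb, 16.9% (14.3% of all) and 19.2% (13.9% on the others). With a 50% reciprocal overlap, they were 36.2%, score 512, 461 bp, 20.2 kb and, on those chromosomes, 25.8% (19.4% on the others). The next-region share stayed within its interval there, but DHT-only regions were then 19.9% of all, so its ratio to that was 1.24, against 1.65 as reported. With only the upper 50% of every list by score, 902 regions were DHT-only, and the values were 14.5%, score 799, 708 bp, 62.7 kb, 14.02% (DHT-only regions were 9.76% of all) and 11.5% (9.63% on the other chromosomes). Only 263 of those 902 were among the 3297, because a counterpart below the chosen score no longer counts. With all lists cut to the 12096 best-scoring peaks, 2728 of 2947 regions were shared with the 3297, and the values were 25.6%, score 512, 495 bp and 51.4 kb. With peaks reset to 500 bp, which fixes the width, they were score 498, 40.2 kb and, for the next region, 20.2% (15.8% of all).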
